A study of Gasterosteus aculeatus with 34 samples.

Results

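Male sticklebacks that saw a female, a rival, both at once or neither were compared to find genes in which the joint presentation differed from the sum of its parts. For each gene the non-additivity was the tradeoff level minus the courtship level minus the challenge level plus the control level, on the log2 scale, so that 0 stands for a tradeoff response equal to the sum of both single responses. It was computed in each forebrain region apart from all 34 libraries of the series, 17 of the telencephalon and 17 of the diencephalon. Genes were then described in which both single stimuli moved away from control and the tradeoff did not, and the reverse. By a fold rule given below, the first kind held 9 telencephalon genes that were up and 20 that were down, with 11 and 10 for the diencephalon. The reverse held 37 telencephalon genes up and 48 down, with 33 and 32 for the diencephalon. These counts are out of 16437 and 17014 genes whose mean level reached 1 CPM. CPM is a gene's count scaled to the size of its library after normalization between libraries.

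The animals were 17 breeding males of the threespine stickleback (Gasterosteus aculeatus), reared in the laboratory from wild-caught parents of the "white" ecotype. Each male had lived through 8 daily trials in which it met every treatment more than once, so that the control males too had earlier met females and rivals, and the last trial set its group. The control group (C, 4 males) was shown only empty flasks, the courtship group (F, 4 males) an enclosed gravid female, the challenge group (M, 5 males) an enclosed rival in breeding colour, and the tradeoff group (MF, 4 males) a female and a rival in separate flasks. Both regions were taken 60 minutes after that trial, and every male gave a library of each region.

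In threespine sticklebacks the male builds and guards a nest, courts females with a zigzag dance and attacks intruding males, so that a female and a rival call for opposed behaviour at the same moment. In fish, much of the brain circuitry that weighs such social signals lies in the telencephalon and, in the diencephalon, in the preoptic area and hypothalamus. A gene whose response to a combined stimulus is smaller than the sum of its responses to the parts is called sub-additive, and a gene that responds to the combination alone is the extreme of the opposite case. The deposited tables identify genes by number only, so levels are given by identifier and no function is assigned.

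Counts over gene models came to 22802875 to 36656215 per telencephalon library and 16522465 to 34384860 per diencephalon library. Some libraries stood apart. In the telencephalon library of control male 304, ENSGACG00000018030, at 177.1 to 543.7 CPM in every diencephalon library, was at 154 CPM, where the other telencephalon libraries held 0.552 to 4.401 CPM, and in its diencephalon library ENSGACG00000005648, at 103 to 274.5 CPM in the telencephalon, was at 40.5 CPM against 0.3964 to 5.277 CPM elsewhere. The telencephalon libraries of males 298, 304, 308 and 321 held 683.5 to 1308 CPM of ENSGACG00000009153, and the other 13 at most 106.9 CPM. The telencephalon library of courtship male 329 had the lowest share of alignments that were not unique, 11.35%, the next lowest being 17.17%. As tissue was sequenced in bulk, fewer cells of a type and less RNA per cell cannot be told apart. The counts over all genes and of the fold rule are also given without the 4 libraries rich in ENSGACG00000009153 and without male 329. Without male 304 they are given too, but for genes moved by both single stimuli only where a count changed over 1.5-fold.

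No gene passed the test of non-additivity in either region. In the telencephalon 0 of 18277 genes (0%) had an adjusted p under 0.05 in edgeR's quasi-likelihood test, with 545 genes (2.98%) below 0.05 before adjustment, and in limma voom 0 genes passed with 558 before adjustment. Among diencephalon genes, 0 of 18399 (0%) passed with edgeR, with 509 genes (2.77%) below 0.05 before adjustment, and 0 passed in limma voom, with 496. Both edgeR shares before adjustment were smaller than evenly spread p-values, as under no effect in any gene, would give. DESeq2, run without the filter on low counts, called 2 of 21264 telencephalon genes (0.00941%) and 2 of 21389 diencephalon genes (0.00935%), 3 different genes in all. Without control male 304 the edgeR count was again 0 in each region, with 661 and 452 genes below 0.05 before adjustment. Without courtship male 329 it was 0 in each region, with 540 and 498. Without the 4 telencephalon libraries rich in ENSGACG00000009153, a setting added after the data had been seen, it was 0 with 865.

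The spread of the contrast sets how closely a departure from additivity could be estimated in a gene taken alone. It combines 4 group means, and its median standard error was 0.19 on the log2 scale in the telencephalon and 0.16 in the diencephalon. Its 95% interval lay within 2-fold of additivity for 79.1% of the 16437 telencephalon genes above the floor of 1 CPM and for 86.7% of the 17014 diencephalon genes. Within 4-fold it lay for 95.5% and 97.5%. These intervals are for each gene alone, without adjustment over genes, so an interval clear of 0 need not pass the adjusted test. The median of the contrast was 0.00 in both regions, and the middle 50% of genes lay between -0.13 and 0.13 in the telencephalon and between -0.10 and 0.11 in the diencephalon.

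Genes on the low side of additivity were those in which both single groups lay above control. Of the 283 telencephalon genes (1.55%) with a contrast below 0 and p below 0.05 before adjustment, 272 had both single means above the control mean, and in 202 of these the tradeoff mean was nearer to control than either single mean. Of the 262 genes (1.43%) with a contrast above 0, 252 had both single means below control, and the tradeoff mean was the nearest to control in 193 of them. In the diencephalon the same held for 250 of 265 genes (1.44%) below 0 and 220 of 244 (1.33%) above 0, with the tradeoff nearest to control in 181 and 148. Over all 18277 and 18399 genes tested, both singles were above control in 31.4% and 31% and below it in 33.4% and 31.1%. Among all telencephalon genes with both singles above control the tradeoff was the nearest in 34.8%, and with both below in 32.4%, against 30.7% and 30.6% for diencephalon genes. The contrast is built from these same means, so the counts describe its form and test nothing.

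**Figure D1:**
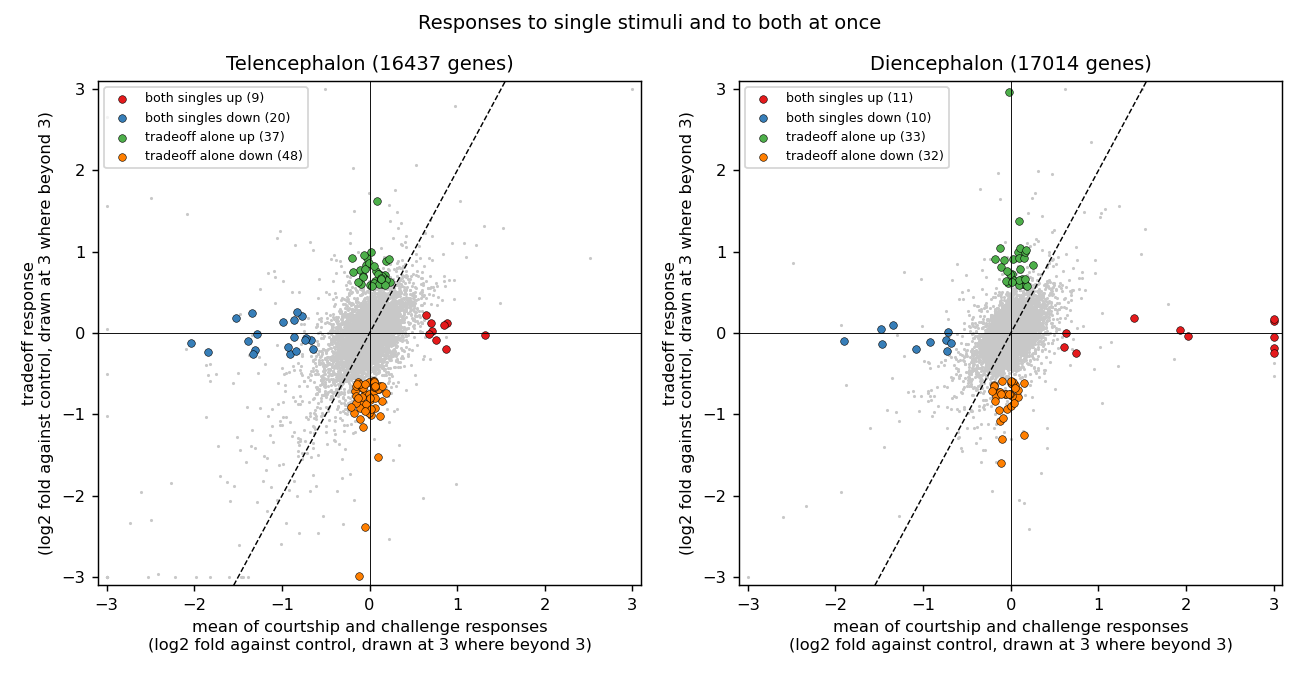
Each point is a gene with a mean of at least 1 CPM; the x axis is the mean of its courtship and challenge responses and the y axis its tradeoff response (fitted log2 fold against control), and the dashed line marks additivity. The 4 coloured sets are the genes of the fold rule, which sit along the axes by construction, beside 16437 telencephalon and 17014 diencephalon genes that gather around the origin.

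In the diencephalon the gene with the lowest p was ENSGACG00000007675. Its level was 6.48, 5.55, 8.44 and 7.21 CPM in control males 303, 304, 307 and 308, the order kept for all genes below. Courtship males 299, 319, 320 and 329 held 10.6, 8.07, 12.9 and 10.2 CPM, and challenge males 298, 317, 318, 322 and 330 held 7.14, 12.7, 9.55, 11.2 and 12.8 CPM. Tradeoff males 302, 306, 321 and 323 held 5.92, 6.04, 6.71 and 5.89 CPM. Every male with a single stimulus lay above every tradeoff male, while courtship male 319 and challenge male 298 lay within the range of the controls. The fitted levels were 1.51-fold the control after courtship, 1.54-fold after challenge and 0.887-fold after the tradeoff, where additivity would have given 2.32-fold. The contrast was -1.39 (SE 0.25, 95% interval -1.91 to -0.86, edgeR adjusted p = 0.499). DESeq2 called the gene at an adjusted p of 0.0034, and edgeR did so once male 298 was left out (adjusted p = 0.041); 2 of the 22 alternatives passed 0.05, and the adjusted p spanned 0.0034 to 1. In telencephalon tissue, where all 17 libraries held 1.15 to 5.5 CPM, the contrast was -0.19 (SE 0.60), and it was above 0 without male 299, 308 or 322 (0.08, 0.06 and 0.23).

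A smaller departure of the same sign was that of ENSGACG00000003515, which was at 11.9, 11, 11.9 and 11.5 CPM in diencephalon controls, 15.3, 13.2, 14.8 and 16.1 after courtship, 14.9, 11.4, 13.9, 14.1 and 14.2 after challenge, and 12.8, 12.5, 12.1 and 11.9 after the tradeoff. All 4 courtship males and 4 of the 5 challenge males lay above every control and tradeoff male, and challenge male 317 lay among the controls. The contrast was -0.52 (SE 0.13, edgeR adjusted p = 1), and with each male left out in turn it stayed between -0.58 and -0.48. ENSGACG00000007151 had a contrast of -0.58 (SE 0.15), with courtship means 1.24-fold the control, challenge means 1.08-fold and tradeoff means 0.894-fold. ENSGACG00000008727 had a contrast of -1.25 (SE 0.33), set by challenge levels 1.74-fold the control beside courtship levels of 1.2-fold and tradeoff levels of 0.882-fold, and its challenge males were spread from 2.31 to 4.42 CPM. The adjusted p of both genes was 1 in edgeR.

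On the other side lay genes that were lower with either stimulus alone. ENSGACG00000005906 was at 4.45, 4.12, 4.02 and 4.47 CPM in diencephalon controls, 3.64, 3.62, 3.48 and 2.97 after courtship, 2.96, 3.8, 3.69, 2.7 and 3.73 after challenge, and 4.6, 4.99, 3.97 and 4.26 after the tradeoff. It was the only diencephalon gene of 17014 (0.00588%) in which all 9 males with a single stimulus lay below all 8 control and tradeoff males, and 0 genes (0%) showed the mirror image. Its contrast was 0.71 (SE 0.20, edgeR adjusted p = 1), and its telencephalon value was 0.54 (SE 0.24), or 0.81 without the 4 libraries rich in ENSGACG00000009153. There the level with a single stimulus was 1.01- and 0.986-fold the control and the tradeoff level 1.44-fold, so the telencephalon value came from the tradeoff group. Without male 304, 307, 318 or 321 in turn, the count went from 1 to 2. In the telencephalon 0 of 16437 genes (0%) separated the single-stimulus males in either direction. The count of 0 above the rest became 2 without male 299 or 330 and 1 without male 307, 308, 318 or 321 in the telencephalon. In the diencephalon it became 2 without male 299 or 302 and 1 without male 306, 317, 318, 320, 322 or 330.

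ENSGACG00000016725 came close to the same arrangement. Its diencephalon levels were 15.4, 14.7, 15.1 and 14.7 CPM in controls, 12.9, 12.8, 13 and 12.5 after courtship, 11.8, 13.3, 13.7, 12.3 and 12.7 after challenge, and 17.6, 14, 13.4 and 15.3 after the tradeoff. All 9 single-stimulus males were below the 4 controls, and tradeoff male 321 alone of the tradeoff males fell within the range of the single-stimulus males. The contrast was 0.46 (SE 0.12, edgeR adjusted p = 1) against 0.07 (SE 0.28) in the telencephalon, where it lay below 0 without male 306, 308 or 320 (-0.08, -0.10 and -0.02) and without the 4 libraries rich in ENSGACG00000009153 (-0.21). ENSGACG00000005703, at 28.6 to 37.3 CPM after courtship and 40 to 44.9 in controls, had a contrast of 0.48 (SE 0.12), and challenge males at 37 to 41.2 CPM overlapped both other groups. ENSGACG00000018621 had a contrast of 1.61 (SE 0.38) from courtship levels of 0.514-fold and tradeoff levels of 1.34-fold the control. Its telencephalon contrast was 0.22 (SE 0.49), and -0.03 and -0.05 without male 307 or 321.

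ENSGACG00000010917 was lower with either stimulus alone in both regions. In the diencephalon it was at 7.58, 11.1, 9.41 and 4.64 CPM in controls, 5.1, 3.44, 4.5 and 3.64 after courtship, 3.17, 3.26, 2.26, 4.73 and 7.16 after challenge, and 6.74, 6.92, 6.76 and 5.46 after the tradeoff. Control male 308 and challenge male 330 crossed into the range of the other side. The fitted levels were 0.507-fold, 0.497-fold and 0.787-fold the control, and the contrast was 1.64 (SE 0.41, edgeR adjusted p = 1; DESeq2 adjusted p = 0.238, the lowest of 22 alternatives). In the telencephalon of the same males the controls held 17.4, 11.6, 16.5 and 8.31 CPM, the courtship males 5.58, 6.1, 11.1 and 7.88, the challenge males 5.64, 6.36, 9.89, 5.62 and 15.1, and the tradeoff males 13.7, 10.3, 14.2 and 12.5. Male 308 was again the lowest control and male 330 the highest challenge male, and courtship male 320 also reached the range of the tradeoff males. The contrast was 1.38 (SE 0.43). ENSGACG00000003511 had the highest diencephalon contrast of the 5 named above 0, 3.12 (SE 0.79), but control males 303 and 308 at 4.89 and 8.82 CPM and tradeoff males 302 and 306 at 4.6 and 3.3 CPM held it up, the other 13 libraries being at 0.676 to 1.66 CPM.

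**Figure D2:**
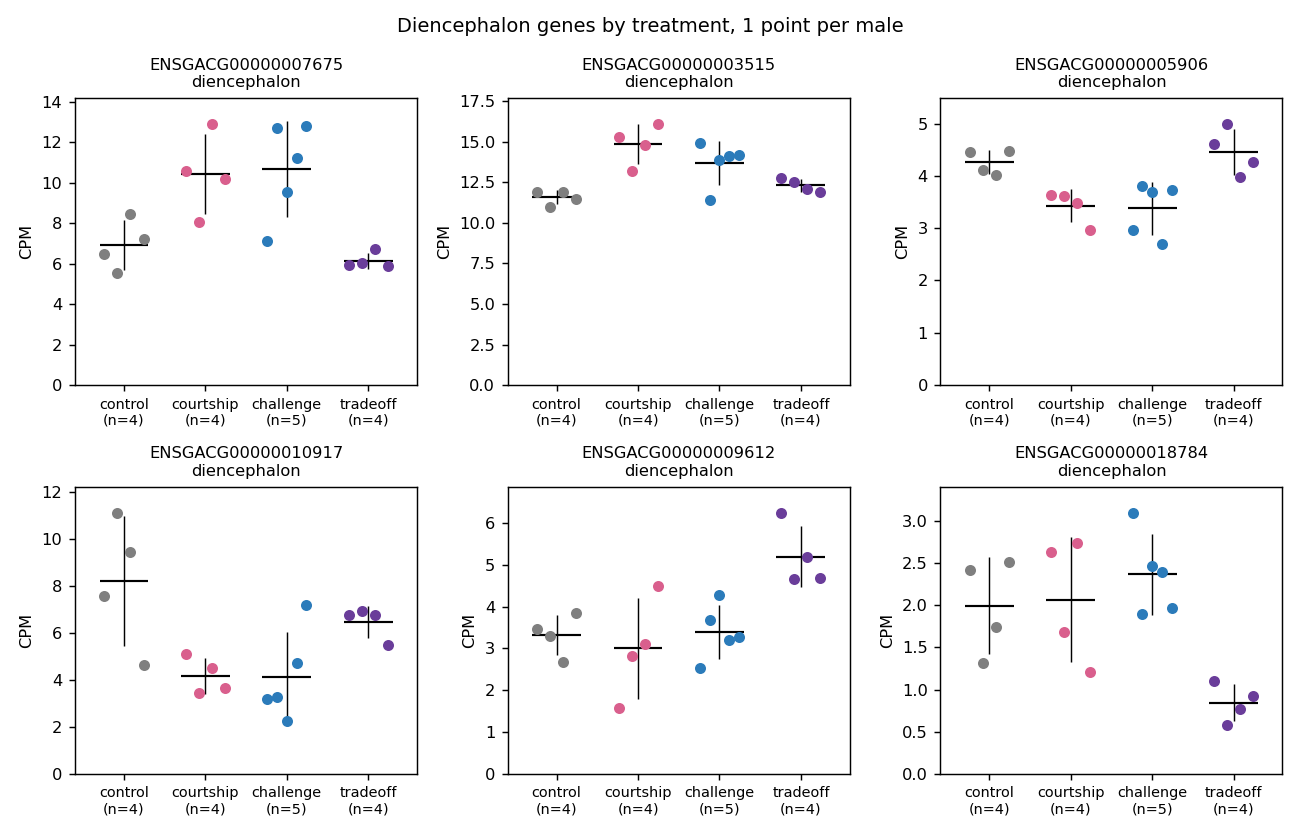
Levels of 6 diencephalon genes in CPM by treatment, a point per male with the group mean (horizontal bar) and SD (vertical bar). ENSGACG00000007675 and ENSGACG00000003515 sit higher in most single-stimulus males, ENSGACG00000005906 and ENSGACG00000010917 lower, and ENSGACG00000009612 and ENSGACG00000018784 set the 4 tradeoff males apart, at 4.67 to 6.25 and 0.584 to 1.1 CPM.

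In the telencephalon the lowest p was that of ENSGACG00000010963. Control males held 4.49, 4.75, 6.06 and 6.73 CPM, courtship males 8.39, 7.26, 8.12 and 7.01, challenge males 8.84, 7.59, 7.05, 7.22 and 6.21, and tradeoff males 5.4, 3.77, 5.39 and 4.78. All courtship males and 4 of the 5 challenge males lay above every control and tradeoff male, challenge male 330 being the exception. The levels were 1.4-fold, 1.34-fold and 0.876-fold the control, and the contrast was -1.09 (SE 0.23, 95% interval -1.57 to -0.61, edgeR adjusted p = 1). DESeq2 called it at an adjusted p of 0.0413, 1 of 23 alternatives past 0.05, over which the adjusted p reached 1. In the diencephalon its contrast was 0.00 (SE 0.20), and the difference between the regions was -1.10 (SE 0.29), with an edgeR adjusted p of 1 over the 18923 genes of that fit.

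Other telencephalon genes were higher with each stimulus and at the control level with both. ENSGACG00000016937 was at 10.2, 18, 15.1 and 15.8 CPM in controls, 15.1, 29.7, 24.7 and 19.6 after courtship, 26.1, 29.6, 20.8, 27.4 and 20.7 after challenge, and 13, 16, 18.9 and 10.4 after the tradeoff. Courtship male 299 lay among the controls, and the other 8 single-stimulus males lay above every control and tradeoff male. The levels were 1.51-fold, 1.69-fold and 0.989-fold the control, with a contrast of -1.36 (SE 0.30, edgeR adjusted p = 1; 0.0588 in DESeq2, the lowest of 23 alternatives). ENSGACG00000012592 had the same layout, at 4.1, 9.25, 6.19 and 5.88 CPM in controls, 5.8, 12, 11.2 and 12.3 after courtship, 11.4, 10.5, 11.6, 12.6 and 9.95 after challenge, and 3.67, 4.42, 9.84 and 6.23 after the tradeoff, with male 299 again low. Its contrast was -1.59 (SE 0.41) in the telencephalon and -0.58 (SE 0.29) in the diencephalon. ENSGACG00000013533, an abundant transcript, was at 2010 to 5370 CPM in controls, 5520 to 9640 after courtship, 4590 to 8980 after challenge and 2760 to 6000 after the tradeoff. Courtship males lay above every control, while challenge and tradeoff males overlapped both groups, and the contrast was -1.40 (SE 0.42). ENSGACG00000002457, with a contrast of -1.53 (SE 0.37), was at 3.26 to 4.01 CPM in all 4 courtship males, above every control at 2.31 to 2.76 CPM, while challenge male 318 at 2.16 CPM lay below the controls.

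ENSGACG00000015999 and ENSGACG00000009825 gave contrasts below 0 with folds under 1.3. ENSGACG00000015999 was 1.17-fold the control after courtship, 1.27-fold after challenge and 0.859-fold after the tradeoff (contrast -0.79, SE 0.19). ENSGACG00000009825 was 1.26-fold, 1.19-fold and 1.01-fold (contrast -0.56, SE 0.14), with the lowest single-stimulus male, challenge male 322, at 40.2 CPM inside the control range of 34.9 to 43.5 CPM. For both genes the edgeR adjusted p was 1.

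Above 0 in the telencephalon, ENSGACG00000002455 was at 16.3, 15.3, 11.9 and 16.1 CPM in controls, 11.8, 12.5, 12.1 and 10.4 after courtship, 10.8, 9.57, 10.5, 11 and 13.4 after challenge, and 14.8, 16.1, 14.2 and 11.9 after the tradeoff. Control male 307 and tradeoff male 323 were as low as the single-stimulus males. Its contrast was 0.71 (SE 0.18, edgeR adjusted p = 1) against 0.07 (SE 0.21) in the diencephalon, where it was -0.03 without male 317 and -0.02 without male 321. ENSGACG00000019019 had the smallest contrast of the 10 telencephalon genes named by p, 0.37 (SE 0.11). Its controls held 32.1 to 35.9 CPM, its tradeoff males 31.1 to 35.9 CPM and its courtship males 28 to 30.3 CPM, while challenge males at 26.6 to 32.7 CPM reached into the control range. ENSGACG00000013575 gave 1.27 (SE 0.33), with controls at 3.64 to 7.02 CPM, single-stimulus males at 2.08 to 4.48 CPM and tradeoff males at 3.59 to 5.4 CPM. ENSGACG00000000032 gave 1.60 (SE 0.37) in the telencephalon and 1.07 (SE 0.45) in the diencephalon, and courtship carried it, at 0.43-fold the control in the telencephalon beside 0.825-fold after challenge. ENSGACG00000008675 gave 1.90 (SE 0.55), with means near the floor, at 0.497 to 0.937 CPM in single-stimulus males and 0.629 to 2.6 CPM in the others.

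**Figure D3:**
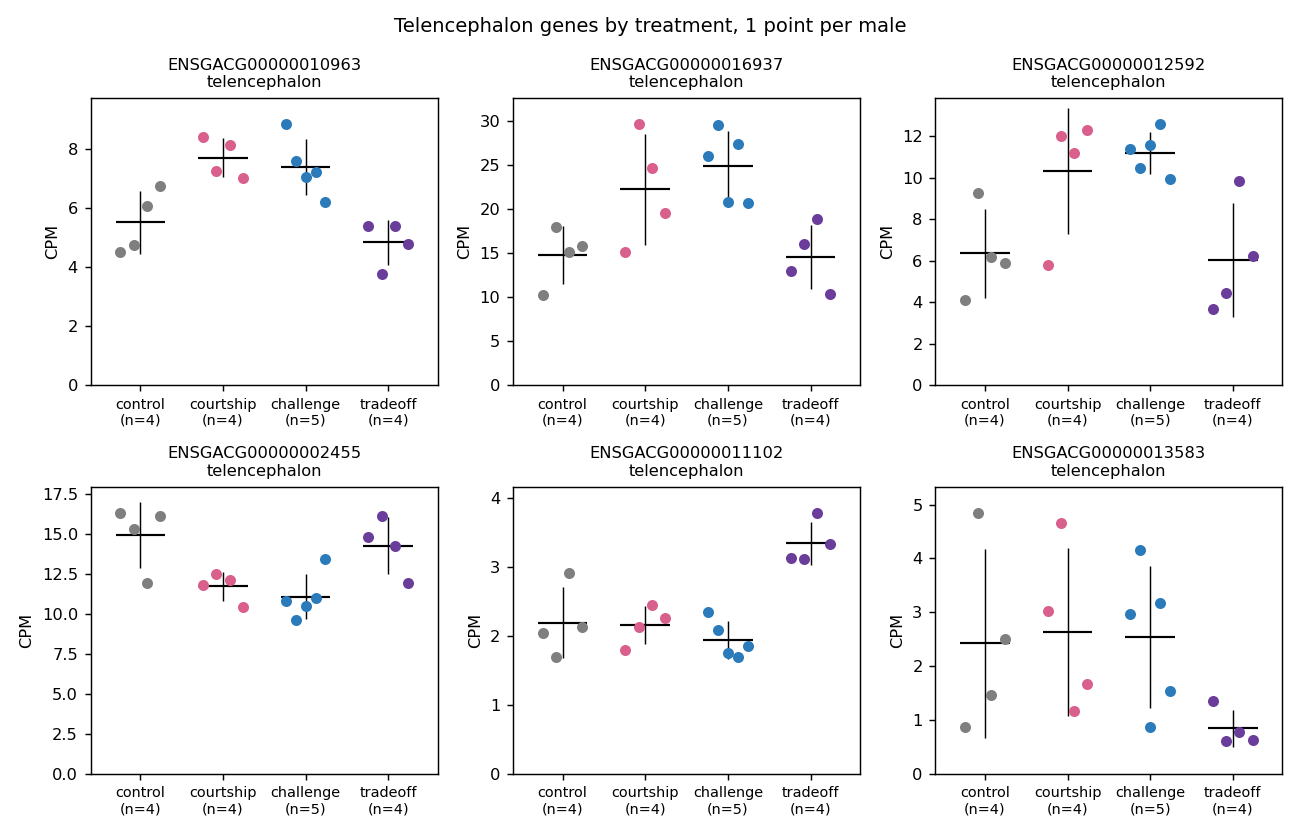
Levels of 6 telencephalon genes in CPM by treatment, drawn as for the diencephalon (point per male, bar for the mean, line for the SD). ENSGACG00000010963, ENSGACG00000016937 and ENSGACG00000012592 sit higher in most single-stimulus males, ENSGACG00000002455 lower, and the 4 tradeoff males of ENSGACG00000011102, at 3.12 to 3.79 CPM, lie above the other 13.

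The fold rule asked for levels at least 1.5-fold from control in both single groups, in the same direction, and within 1.2-fold of control in the tradeoff. It was applied to fitted group means with no test, so the genes it gives are a description. Both singles were up in 9 telencephalon genes (0.0548%) and 11 diencephalon genes (0.0647%), and down in 20 (0.122%) and 10 (0.0588%). At the edge of the rule stood ENSGACG00000007675 with a smaller single fold of 1.51 just inside it, and ENSGACG00000018599 with 1.45 just outside, both in the diencephalon. The moved groups stood clear of the controls in few of these genes. All single-stimulus males were beyond all controls in none of the 9 and 11 genes with both singles up, in 1 of the 20 telencephalon genes with both down and in 0 of the 10 diencephalon genes with both down. The share over all genes was not counted, so this describes the chosen genes alone. As the floor of 1 CPM is set on the mean over all males, a gene high in a few single-stimulus males passed it through those males.

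In the diencephalon set with both singles up, several genes were high in a pair of males. Courtship male 319 and challenge male 298 held the highest levels in 6 of its 11 genes, and male 298 the highest of all in 6. Among the genes led by this pair was ENSGACG00000016693, which was high in males of all groups, as given below. A set chosen for high courtship and challenge means favours such males as the highest. How often this pair was highest over all genes was not counted. ENSGACG00000012174 was at 47.1 CPM in male 319 and 43.2 CPM in male 298, while the remaining 15 males held 0.0406 to 1.29 CPM. ENSGACG00000007397 was at 17.6 and 73.6 CPM in these males and at 0.377 to 3.75 CPM elsewhere, ENSGACG00000020168 at 16.9 and 29.5 CPM, and ENSGACG00000013640 at 16.3 and 36.3 CPM. Challenge male 322 held the next highest level of ENSGACG00000012174, ENSGACG00000007397 and ENSGACG00000020168, at 1.29, 3.75 and 2.34 CPM. Without male 298 the rule gave 3 genes, without male 319 it gave 5, and without tradeoff male 321 it gave 17. On group medians in place of fitted means, a setting added after the data had been seen, 5 genes met the rule, 2 of them among the 11. ENSGACG00000012569 was not of this kind. It stood at 0.898 to 1.15 CPM in controls, 1.24 to 2.09 CPM after courtship and 0.915 to 1.17 CPM after the tradeoff, with challenge males at 0.655 to 3.07 CPM.

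ENSGACG00000002871, which DESeq2 called in both regions, was high in 3 males only. Courtship males 320 and 329 and challenge male 318 held 34.6, 34 and 34.9 CPM in the telencephalon and 34.4, 34.7 and 32.5 CPM in the diencephalon. The other 14 males held 0 to 0.0985 CPM and 0 to 0.685 CPM. No control or tradeoff male was among the high ones, and neither were the other 2 courtship and 4 challenge males. The DESeq2 adjusted p was 0.000186 and 0.00419, and DESeq2 was not run without male 329. In the telencephalon the filter on low counts left the gene out of the edgeR and limma voom fits. In the diencephalon neither called it (adjusted p = 0.9996 in edgeR and 0.999 in limma voom). By its fitted folds there it was in the set with both singles up. A fitted fold of a gene at or near 0 in whole groups depends on the prior count and is not given. ENSGACG00000016693, the 1 gene with both singles up in both regions, also had males with and without the transcript. Males 298, 308, 318, 319, 321 and 329, of all 4 groups, were at 8.68 to 10.8 CPM in the diencephalon, and the other 11 at 0 to 0.284 CPM. The same 6 males held 7.6 to 10.3 CPM in the telencephalon, where the other 11 were at 0.

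Among the 10 diencephalon genes with both singles down, high levels of a control male and a tradeoff male set the pattern in several. Control male 304 and tradeoff male 302 held the highest levels in 4 of them. Here too the choice favours control and tradeoff males as the highest, and the share over all genes was not counted. ENSGACG00000009609 was at 28.5 CPM in male 304, 29.5 CPM in male 302 and 2.58 to 4.53 CPM in the other 15. ENSGACG00000006479 was at 5.76 and 5.7 CPM in these males and at 0.45 to 1.1 CPM elsewhere. Both genes were more abundant in the telencephalon, ENSGACG00000006479 at 8.8 to 29.8 CPM and ENSGACG00000009609 at a mean of 160.7 CPM. ENSGACG00000005648, the gene high in the diencephalon library of male 304, was at 3.452 CPM in that of male 302, within the range of the others. The part of telencephalon RNA in these levels was not tested. The rule gave 6 genes without male 302, 303 or 304 and 5 without male 307. ENSGACG00000018628 was spread over more males, with 1.76, 1.71, 2.47 and 0.744 CPM in controls, 0.696 to 1.41 CPM in courtship males, 0.587 to 1.37 CPM in challenge males and 0.934 to 2.34 CPM in tradeoff males.

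**Figure D4:**
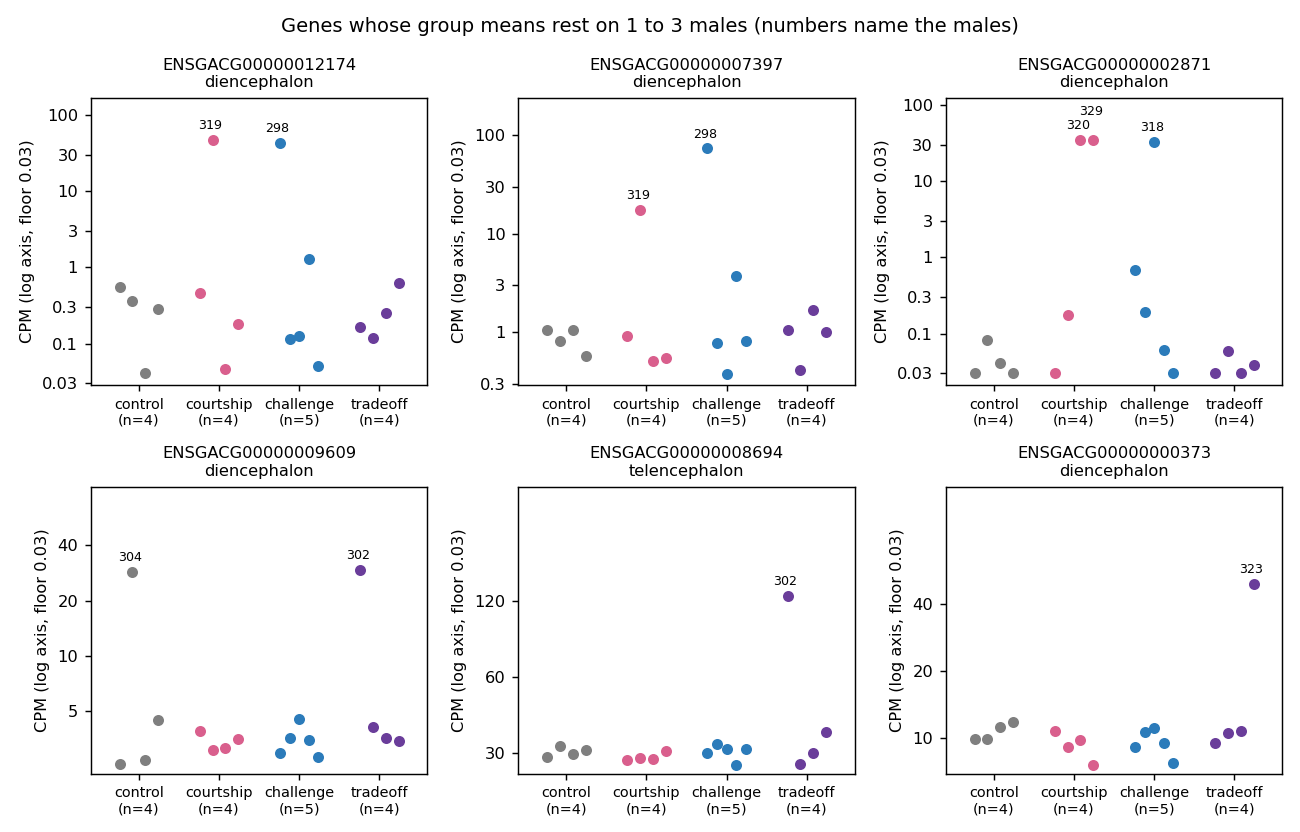
Levels of 6 genes of the fold rule in CPM on a log axis by treatment, a point per male, with the number of each male that stands far above the rest. ENSGACG00000012174 and ENSGACG00000007397 are high in males 298 and 319, ENSGACG00000002871 in males 318, 320 and 329, ENSGACG00000009609 in males 302 and 304, ENSGACG00000008694 in male 302 and ENSGACG00000000373 in male 323.

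In the telencephalon the genes with both singles up included ENSGACG00000016937, ENSGACG00000012592 and ENSGACG00000013533, described above, and their count of 9 became 18 without control male 304, 28 without control male 308 and 5 without courtship male 319. Without the 4 libraries rich in ENSGACG00000009153 the rule gave 33 genes with both singles up and 16 with both down. Those with both singles down included ENSGACG00000010917, ENSGACG00000008675 and ENSGACG00000018971. ENSGACG00000018971 was at 2.22, 3.47, 2.91 and 3.45 CPM in controls, 1.46, 1.16, 1.74 and 2.22 after courtship, 1.34, 1.36, 2.19, 1.89 and 1.93 after challenge, and 2.62, 1.27, 4.37 and 2.14 after the tradeoff. All single-stimulus males were at or below the lowest control, while tradeoff males spanned both ranges. The count of 20 fell to 6 without control male 303 and to 12 without tradeoff male 321. Control male 303 held the highest level in 7 of the 20, and how often it did so over all genes was not counted.

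The reverse rule asked for a tradeoff level at least 1.5-fold from control and both single levels within 1.2-fold of it. The tradeoff alone was up in 37 telencephalon genes (0.225%) and 33 diencephalon genes (0.194%), and down in 48 (0.292%) and 32 (0.188%). These counts exceeded those of both singles moved in each region and direction, but the first rule asks 2 groups to move together and the reverse only 1, so the counts cannot be read against each other. The tradeoff males stood clear of all controls in 2 of the 37, 8 of the 33, 4 of the 48 and 4 of the 32. These genes were chosen by the same group means and the share over all genes was not counted, so these values cannot be called high or low. At the edge of the telencephalon genes with the tradeoff down, ENSGACG00000001083 was 1.5-fold below control just inside the rule, and ENSGACG00000019691 was 1.49-fold below just outside.

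A few genes separated the 4 tradeoff males from all other males. They were above the other 13 in 6 telencephalon genes (0.0365%) and 7 diencephalon genes (0.0411%), and below them in 3 (0.0183%) and 7 (0.0411%). How many genes would set apart any other 4 males was not counted, so these counts are a description and show no effect of the tradeoff. In the diencephalon ENSGACG00000009612, ENSGACG00000014359 and ENSGACG00000018784 also met the reverse fold rule, as did ENSGACG00000011102 in the telencephalon. ENSGACG00000009612 was at 3.46, 3.31, 2.68 and 3.84 CPM in diencephalon controls, 1.57, 2.82, 3.11 and 4.5 after courtship, 2.52, 3.69, 4.27, 3.2 and 3.28 after challenge, and 6.25, 4.67, 5.19 and 4.69 after the tradeoff. The tradeoff level was 1.56-fold the control, the contrast 0.75 (SE 0.33, edgeR adjusted p = 1) and that of the telencephalon 0.70 (SE 0.39). ENSGACG00000014359 was at 2.49 to 3.18 CPM in tradeoff males and 0.922 to 2.27 CPM in the other 13, with a diencephalon contrast of 0.73 (SE 0.41).

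ENSGACG00000018784 was the 1 gene below in all tradeoff males that met the fold rule. Its diencephalon levels were 2.42, 1.31, 1.74 and 2.52 CPM in controls, 2.63, 1.68, 2.74 and 1.21 after courtship, 3.1, 1.9, 2.47, 2.4 and 1.97 after challenge, and 1.1, 0.584, 0.763 and 0.929 after the tradeoff. No tradeoff male reached the lowest of the others. The tradeoff level was 0.421-fold the control, beside 1.04-fold after courtship and 1.19-fold after challenge, and the contrast was -1.56 (SE 0.41, edgeR adjusted p = 1). In the telencephalon, where it met the fold rule too, the tradeoff males held 0.849, 0.78, 0.585 and 0.619 CPM, and control male 307 at 0.563 CPM and courtship male 329 at 0.59 CPM were as low. The contrast there was -1.25 (SE 0.65), and -0.75 without courtship male 320.

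ENSGACG00000011102 was the telencephalon gene that met both descriptions. It was at 2.05, 1.69, 2.91 and 2.13 CPM in controls, 1.79, 2.13, 2.45 and 2.26 after courtship, 2.35, 2.08, 1.75, 1.69 and 1.85 after challenge, and 3.13, 3.12, 3.79 and 3.34 after the tradeoff. The contrast was 0.81 (SE 0.29) and in the diencephalon, where groups overlapped, 0.18 (SE 0.27), or -0.06 without control male 307. ENSGACG00000010779 separated the tradeoff males in the telencephalon by a larger difference from the control mean, 0.75 on the log2 scale beside 0.60. It was at 11 to 21.9 CPM in controls, 9.96 to 11.8 CPM after courtship, 9.41 to 23.7 CPM after challenge and 23.8 to 27.1 CPM after the tradeoff, so challenge males came close to the tradeoff males. Its contrast was 0.86 (SE 0.34) there and 0.93 in the diencephalon, and its single-stimulus means lay outside the 1.2-fold limit. ENSGACG00000008499 was at 3.18 to 3.94 CPM in the tradeoff males of the diencephalon and 1.15 to 3.1 CPM in the others (contrast 0.75, SE 0.37). The remaining genes of this kind, outside the fold rule, differed less from control. ENSGACG00000013551 was at 53.7 to 55.1 CPM in tradeoff males and 45.3 to 52.7 CPM in the others in the diencephalon, with a contrast of 0.12 (SE 0.08). ENSGACG00000015734 was at 88.4 to 104 CPM against 46.6 to 87.5 CPM in the telencephalon, and ENSGACG00000011765 at 2.5 to 3.01 CPM against 3.1 to 5.13 CPM.

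Counts of genes that set the tradeoff males apart changed most when one of these 4 males was left out, which by construction leaves fewer males to separate. Without male 302, 306, 321 or 323 in turn, the telencephalon genes with the tradeoff above went from 6 to 14, 15, 24 and 20, and those with it below from 3 to 13, 26, 25 and 32. In the diencephalon, genes above went from 7 to 27, 30, 26 and 16, and genes below from 7 to 22, 18, 30 and 20. Other males moved a count over 1.5-fold as well. Male 308 did so for telencephalon genes above (10), male 322 for diencephalon genes above (11), and males 303 (12), 318 and 330 (6 each) and 319, 320 and 322 (5 each) for telencephalon genes below.

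Some genes of the reverse rule rested on a tradeoff male or on a few high males elsewhere. Tradeoff male 323 held the highest level in 16 of the 37 telencephalon and 15 of the 33 diencephalon genes with the tradeoff alone up, and male 302 in 12 of the 33. A set chosen for a high tradeoff mean favours tradeoff males as the highest, and how often each male was highest over all genes was not counted. ENSGACG00000008694 was at 125 and 129 CPM in the telencephalon and diencephalon of male 302, and at 22.6 to 36.3 CPM in every other library of either region. ENSGACG00000000373 was at 34.5 and 49.2 CPM in male 323 and at 5.79 to 8.84 and 7.55 to 11.7 CPM in the other males. ENSGACG00000014858 was at 18.2 and 26.8 CPM in the telencephalon of males 302 and 306, at 15.5 and 19.7 CPM in their diencephalon, and at 0.162 to 2.06 CPM in all other libraries, tradeoff males 321 and 323 included. In 10 of the 33 diencephalon genes and 3 of the 37 telencephalon genes, exactly 1 tradeoff male held over 2-fold the highest level among the 13 males of the other groups. The choice by tradeoff mean favours such genes and the share over all genes was not counted, so these counts describe the chosen genes alone. ENSGACG00000017786 was more even, at 2.11 to 2.68 CPM in the 4 tradeoff males of the telencephalon, with control male 308 at 2.13 CPM and the other 12 males at 0.726 to 1.57 CPM (contrast 1.33, SE 0.46, edgeR adjusted p = 1).

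Some of the named genes with the tradeoff alone down had tradeoff males that were low beside groups with a wide spread, which was not summed up over the whole sets. ENSGACG00000013583 was at 0.872, 4.85, 1.46 and 2.5 CPM in telencephalon controls, 3.03, 4.66, 1.17 and 1.67 after courtship, 2.96, 4.15, 0.877, 3.17 and 1.53 after challenge, and 1.35, 0.617, 0.781 and 0.619 after the tradeoff. Tradeoff male 302 lay inside the range of every other group, and the contrast was -1.71 (SE 0.77). ENSGACG00000005693 was at 2.96 to 4.5 CPM in tradeoff males of the diencephalon, below 5.1 to 9.94 CPM in controls and 5.52 to 11.9 CPM after courtship, but challenge male 298 at 3.68 CPM overlapped them (contrast -0.94, SE 0.39). Without courtship male 329, at 11.9 CPM, that contrast was -0.63. ENSGACG00000011252 gave -0.65 (SE 0.31) in the diencephalon and -0.64 (SE 0.24) in the telencephalon. ENSGACG00000007587 and ENSGACG00000010177 gave -1.12 (SE 0.57) and -0.94 (SE 0.48) in the telencephalon and 0.46 (SE 0.54) and -0.15 (SE 0.29) in the diencephalon, which became 0.07 without male 307 and -0.02 without male 318.

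The reverse counts also moved with single males. In the telencephalon the 37 genes with the tradeoff up became 62 without male 302, 63 without male 321, 22 without male 323 and 20 without control male 307, and the 48 with the tradeoff down became 89 without male 321, 99 without male 323, 25 without control male 308 and 27 without courtship male 319. In the diencephalon the 33 became 53 and 50 without tradeoff males 306 and 321, and the 32 became 50 and 69 without males 302 and 321. Without control male 304 the telencephalon counts were 37 and 37 and the diencephalon counts 36 and 32, and without the 4 telencephalon libraries rich in ENSGACG00000009153 they were 58 and 27. Without courtship male 329 they were 33 and 34 in telencephalon tissue and 26 and 25 in diencephalon tissue, and the counts with both singles moved were 9 and 21, and 13 and 10. Over all 8 sets of the rule, 1 gene met it with each of the 17 males left out in turn. This was ENSGACG00000009639, a telencephalon gene with the tradeoff alone down, at 2.62 to 4.44 CPM in controls, 2.33 to 4.93 CPM after courtship, 2.29 to 4.26 CPM after challenge and 0.866 to 3.51 CPM after the tradeoff (contrast -0.80, SE 0.50, edgeR adjusted p = 1).

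Every male gave both regions, so the other region reads the same males in a separate library and not other animals. Of the 17959 genes tested in both, 63.3% had a contrast of the same sign in each. The 51 genes with p below 0.05 before adjustment in both, 9.7% of the telencephalon and 10.5% of the diencephalon genes at that level that were tested in both, had the same sign in all 51 cases. Genes of the reverse rule kept their sign in the other region to differing degrees, beside the 63.3% of all genes. Most genes had contrasts near 0 and those of the rule were chosen for larger responses, so the 63.3% is not a matched share. Of the 33 diencephalon genes with the tradeoff alone up, 31 were above 0 in the telencephalon (median 0.70), and of the 48 telencephalon genes with it down, 39 were below 0 in the diencephalon (median -0.36). For the 37 telencephalon genes up, 25 were above 0 (median 0.18), a share close to that of all genes. Of the 28 diencephalon genes down that were tested in the telencephalon, 21 were below 0 (median -0.58). For both singles moved, 7 of 9 and 14 of 20 telencephalon genes kept their sign in the diencephalon (medians -0.37 and 0.35), as did 8 of 9 and 6 of 10 diencephalon genes in the telencephalon (medians -0.67 and 0.44). The same pattern was met in both regions by 1 gene with both singles up, 2 with both down, 6 with the tradeoff alone up and 5 with it down.

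Deviations of a male from its group mean ran together between its regions, with a mean r of 0.385 over 16261 genes, so that agreement between the regions can come from the male as well as from the treatment, and these cannot be told apart here. A fit of the mean of both regions, with the male as a block (limma voom, consensus correlation 0.354), gave 0 of 18923 genes (0%) past an adjusted p of 0.05 and 588 (3.11%) below 0.05 before adjustment. That last share was smaller than evenly spread p-values would give. The lowest p was that of ENSGACG00000014578, with a contrast of 1.04 (SE 0.24, adjusted p = 0.999), followed by ENSGACG00000010917 with 1.63 (SE 0.38) and ENSGACG00000007151 with -0.48 (SE 0.12).

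**Figure D5:**
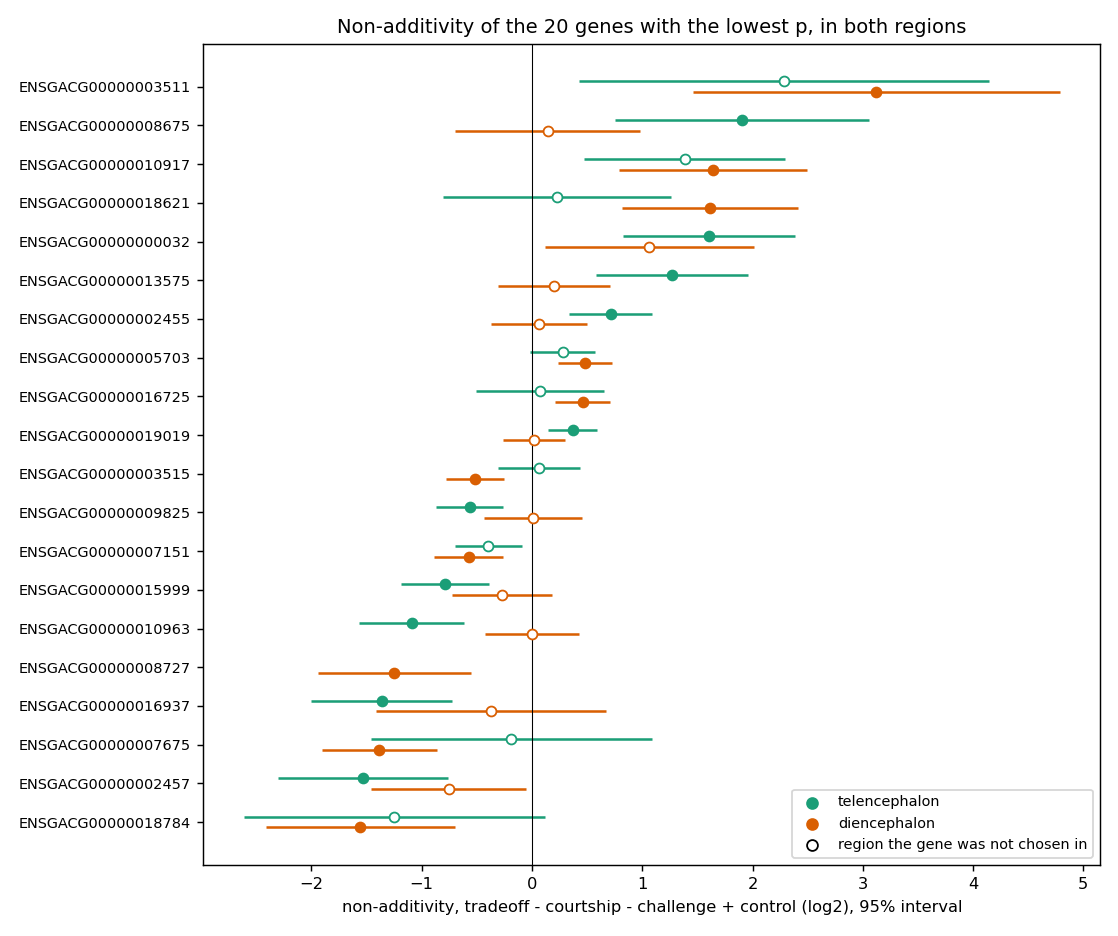
Non-additivity (log2, x axis) with its 95% interval for the 20 genes named by lowest p, 5 per direction and region, in the telencephalon (green) and the diencephalon (orange). Filled points mark the region in which a gene was chosen and open points the other region, where ENSGACG00000010917, ENSGACG00000007151 and ENSGACG00000002457 again lie away from 0 and ENSGACG00000010963 and ENSGACG00000003515 lie near it; the filled intervals were selected for their p.

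Whether the non-additivity differed between the regions was tested directly. In edgeR 0 of 18923 genes (0%) passed, with 270 (1.43%) below 0.05 before adjustment, and with the male as a block 0 passed with 519 (2.74%), the lowest adjusted p being 0.779. Limma voom without the block gave 0, with 246 below 0.05 before adjustment. Here too the shares before adjustment were smaller than evenly spread p-values would give. DESeq2, also without the block, called 3 genes. These were ENSGACG00000007182 (DESeq2 adjusted p = 0.00776), ENSGACG00000014956 (2.81e-09) and ENSGACG00000015274 (7.55e-35). Levels of ENSGACG00000014956 and ENSGACG00000015274 are not given here, so how many males these calls rest on cannot be read. ENSGACG00000007182 was at 30.5 CPM in the diencephalon of male 298, at 2.15 CPM in that of male 322 and at most 0.574 CPM in the remaining 15. Among genes above the floor of 1 CPM, ENSGACG00000010963 had the lowest p in the fit without the block, as given above, and with the block its difference was -1.11 (SE 0.24, adjusted p = 0.779).

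The genes of low p were not concentrated in a class of gene model. Below 0.05 before adjustment were 3% of 17532 Ensembl genes, 2.03% of 444 models on chrY and 3.58% of 279 other models in the telencephalon, and 2.79% of 17662, 1.59% of 440 and 3.26% of 276 in the diencephalon. A chrY model, augustus_masked-chrY-processed-gene-89.52, was in the diencephalon set with both singles up, at 20.1 CPM in male 298, 7.32 CPM in male 319 and 0.438 to 1.37 CPM in the rest. The share of alignments that were not unique was 16.8% ± 4.1 (SD, n = 4) in telencephalon courtship libraries and 19.9% ± 1.1 (n = 5) to 20.2% ± 0.864 (n = 4) in the challenge and control libraries, and its part in the contrast was not tested.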

How the data were processed

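RNA of both forebrain regions of 17 males was sequenced from stranded mRNA libraries, per the labels' protocols. The deposited values are read counts per gene model, 1 file per library, made by the authors with STAR and HTSeq, as the submitters' processing notes name them. Neither versions nor genome build nor annotation is given in the sources used here. The 5 accounting lines of each file were left out of library sizes and tests. Of these, alignments that were not unique took 11.35% to 21.93% of each telencephalon library and 3.724% to 4.728% of each diencephalon library. Of 22295 identifiers 0 matched the 52177 genes of the reference table, so gene lists and cell type markers by symbol could not be used and the labelled regions could not be checked against defining markers.

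In R 4.3.3, edgeR 4.0.16 was fitted per region (TMM, filterByExpr, robust quasi-likelihood) with 4 treatment groups, and p-values were adjusted by Benjamini-Hochberg over all genes tested. Alternatives were DESeq2 1.42.0, limma 3.58.1 (voom), another scaling, no filter, 1 fit of all 34 libraries and leaving out each male. The difference between the regions was fitted over 8 groups, and their mean by voom with the male as a block. The numbers in the labels are the males themselves: deviations of a male's libraries had a mean r of 0.385 over 17 males, and 14 of 17 correlated best with their own. The fold rule used fitted group means (at least 1.5-fold, within 1.2-fold, mean of at least 1 CPM). CPM are counts scaled to the library size of the edgeR fit of that region, after correction by the TMM factor of the library. P-values measure the spread between these males.

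Genes named in each region were the 5 of lowest p in each direction with a mean of at least 1 CPM. The 3 of lowest p in each fold rule set and genes whose single-stimulus males did not overlap the rest were named too. So were genes called by any tool in the contrast of a region, but not those called only for the difference between the regions. Each named gene was also read in the other region. Others were chosen after their values were seen. Members and lists were chosen with earlier results of these data known. On simulated counts with 200 changed genes, edgeR recovered 49.2% of 2-fold and 73.2% of 4-fold departures for the telencephalon fit and 66.8% and 86.4% for the diencephalon fit. Of 1.5-fold departures it recovered 16.8% and 24%. False calls came to 4.6 and 6.8 per simulation. Adjustment over genes is stricter where fewer genes change, so with fewer than 200 changed genes the recovered shares would be lower. They are not the power in these data. No 2 libraries of a group agreed within sampling noise. Intervals cover the spread between males, and the depth of each library is given as a range.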

Additional observations from a re-analysis of the deposited data

Results flagged for a closer look

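Among 191 sets of 4 or 5 males of a group, 16 held a male far from the others of its group. The measure was Dixon's ratio, the gap to the nearest male over the range of the group. Its limit gives about 1 in 20 for unselected values that follow a normal distribution. Most sets were of genes named for their contrast or fold, several through 1 high male, so the 16 cannot be read against that share. In the diencephalon, ENSGACG00000000373 was at 49.2 CPM in tradeoff male 323 and at 9.48 to 10.7 CPM in the others of its group. ENSGACG00000012174 was at 47.1 CPM in courtship male 319, the others being at 0.0464 to 0.454 CPM, and at 43.2 CPM in challenge male 298, the others being at 0.0504 to 1.29 CPM. ENSGACG00000006479 was at 5.76 CPM in control male 304 (others 0.714 to 1.1 CPM), at 5.7 CPM in tradeoff male 302 (others 0.465 to 0.963 CPM) and at 0.45 CPM in courtship male 329 (others 0.858 to 0.883 CPM). ENSGACG00000005693 was at 11.9 CPM in courtship male 329 (others 5.52 to 6.36 CPM). Low values were those of ENSGACG00000003515 in challenge male 317, at 11.4 CPM (others 13.9 to 14.9 CPM), and of ENSGACG00000010917 in tradeoff male 323, at 5.46 CPM (others 6.74 to 6.92 CPM).

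ENSGACG00000002871 was at 34.9 and 32.5 CPM in the telencephalon and diencephalon of challenge male 318, where the other challenge males held 0 and at most 0.685 CPM. Its 0.0985 CPM in the telencephalon of control male 308 stood beside 0 in the other controls. In the telencephalon ENSGACG00000008694 was at 125 CPM in tradeoff male 302 (others 27.2 to 36.3 CPM), ENSGACG00000012592 at 5.8 CPM in courtship male 299 (others 11.2 to 12.3 CPM) and ENSGACG00000017786 at 2.13 CPM in control male 308 (others 0.993 to 1 CPM). The telencephalon library of tradeoff male 306 held 30682988 counts over gene models, the other tradeoff libraries 25242313 to 25426404.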

How the results depend on the processing

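The count of 0 genes past an adjusted p of 0.05 was 2 with DESeq2 in the telencephalon, 2 in the diencephalon and 3 for the difference between the regions. It was 0 in every other setting, apart from 1 in the diencephalon without challenge male 298. With each male left out it ran from 0 to 0 in the telencephalon, from 0 to 1 in the diencephalon, from 0 to 0 for the difference and from 0 to 0 for the mean of the regions. With the male as a replicate block the difference gave 0 genes, and the mean of the regions gave 0 without the block, so the pairing changed no call.

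Counts of the fold rule depended on its thresholds; below they are given in the order both singles up, both down, tradeoff up and tradeoff down. With 2-fold as moved, the telencephalon gave 1, 4, 1 and 7 and the diencephalon 7, 3, 6 and 5. With 1.1-fold as not moved, the telencephalon gave 7 with both down, 7 with the tradeoff up and 16 with it down. The diencephalon gave 4 with both up, 12 with the tradeoff up and 11 with it down. Without the floor of 1 CPM the telencephalon gave 23, 53, 64 and 91, and the diencephalon 17 with both up and 22 with both down. Without the 4 telencephalon libraries of males 298, 304, 308 and 321 it gave 33 with both up, 58 with the tradeoff up and 27 with it down. With group medians it gave 23 with the tradeoff up, and the diencephalon 5 with both up and 18 with the tradeoff up. The last pair of settings was chosen after seeing the data.

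With each male left out, the telencephalon sets ran from 5 to 28, 6 to 28, 20 to 63 and 25 to 99 genes, and the diencephalon sets from 3 to 17, 5 to 14, 23 to 53 and 23 to 69. Genes with both singles above all other males ran from 0 to 2 in each region, and those below from 0 to 0 for the telencephalon and 1 to 2 for the diencephalon. Genes with the tradeoff above ran from 6 to 24 and 7 to 30, and below from 3 to 32 and 7 to 30. In the region a gene was chosen in, 0 of 41 contrasts of named genes changed sign in any setting run. In the other region 12 of 37 did so with 1 male left out, most of them near 0. The 41 were chosen for their values in these same libraries, mostly by the p of this contrast. That choice favours a stable sign, so the 0 is no test of stability and cannot be read against the 12. Beyond the fewer males left by these settings, the cause was not tested. With 4 or 5 males a group, the main edgeR fits called no gene, ENSGACG00000014858 at a telencephalon contrast of 4.67 (SE 1.43) included. The size of departure that the test could call in these data is not known. A count of 0 therefore does not show that responses were additive.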
